A study of Selenicereus undatus with 4 samples.

Results

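The genes described here are those of crassulacean acid metabolism (CAM), the night fixation of CO2 into malate that pitaya uses, together with the carriers and the proton pump that serve malate storage. A unigene, an assembled transcript with its own number, was taken as a member when its protein match named carbonic anhydrase, phosphoenolpyruvate carboxylase (PEPC) or its kinase, malate dehydrogenase, a malate or dicarboxylate transporter, a V-type proton ATPase subunit, malic enzyme, phosphoenolpyruvate carboxykinase (PEPCK), or pyruvate, phosphate dikinase (PPDK) or its regulatory protein. This rule found 68 members among the 11051 genes of the table that compares NL with L2. The rule reads words and no measured value, although it was written with earlier results of these data known. The table itself holds only genes that had already been called as differentially expressed on these same libraries, so a CAM gene outside it is not analysed here and is not known to be unchanged.

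The study asked which genes move when pitaya is brought to flower in the off season by supplementary light. The tissue was that around the thorn seat of the stem of 1-year-old 'Jindu No.1' plants. NL plants got no supplementary light, and L2 plants were taken about 1 week after the bud stage under supplementary light in the evening. There were 3 libraries of each, every one made from 4 mixed plants, and the other stages of light treatment are not analysed here. Since L2 differs from NL both in light and in the presence of a growing bud, these cannot be told apart, and the hour at which tissue was cut is not given in the sources used here.

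In CAM plants, carbonic anhydrase turns CO2 into bicarbonate at night, PEPC joins bicarbonate to phosphoenolpyruvate to give oxaloacetate, and malate dehydrogenase reduces this to malate. The V-type proton ATPase charges the vacuole and malate channels and carriers let malate in, while PEPC kinase keeps PEPC active in the dark. By day malate leaves the vacuole and is split by malic enzyme, or oxaloacetate is split by PEPCK, and the CO2 set free is fixed again behind closed stomata. PPDK turns the pyruvate left by malic enzyme back into phosphoenolpyruvate, and a bifunctional regulatory protein switches PPDK on and off.

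Expression was given as RPKM, reads of a transcript scaled by its length and by the mapped reads of the library, so that levels can be set beside each other between genes. The read totals behind this scaling, recovered from RPKM and the deposited mean counts, lay between 3860701 and 7533457 per library. Shares of library reads given below refer to these totals, not to all reads sequenced. A gene was called when its limma adjusted p on log2(RPKM + 0.1) was at most 0.05, and the folds below are ratios of the mean RPKM of the stages. These p-values set the difference between the stages against the spread between libraries, which limma shares across the listed genes. Since the genes had been selected on the same libraries, the p-values are no independent evidence of a change. In bulk tissue, fewer cells that express a gene and less RNA per cell cannot be told apart.

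Of the 68 members, 20 were higher and 48 were lower in L2, or 29.4% and 70.6%. limma called 20 higher and 47 lower, where 63.0% of all listed genes were called higher and 36.3% were called lower. With RPKM as deposited, the median log2 ratio was -1.67 for the members and 1.44 for the table. Scaling lowered both medians by a like amount, to -2.51 and 0.59 with TMM and to -2.73 and 0.36 with DESeq2 size factors. The shares of listed genes called did depend on it, as DESeq2 called more of them lower (36.4%) than higher (25.1%). For 65 members, or 95.6%, all libraries of one stage lay above all those of the other, which is near the 97.6% of all listed genes and says nothing particular of the members. The median log2 ratio was -2.21 among the lower members (range -7.68 to -1.02) and 2.28 among the higher ones (range 1.15 to 4.17). The 3 libraries of a stage lay close together for most members, with a median coefficient of variation of 11.6% in NL over the 42 members with at least 10 RPKM there and of 17.9% in L2 over 38 members. The enzymes and their regulators were mostly lower, 39 of 48, whereas the carriers and the proton pump were split, with 11 higher and 9 lower of 20.

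**Figure D1:**
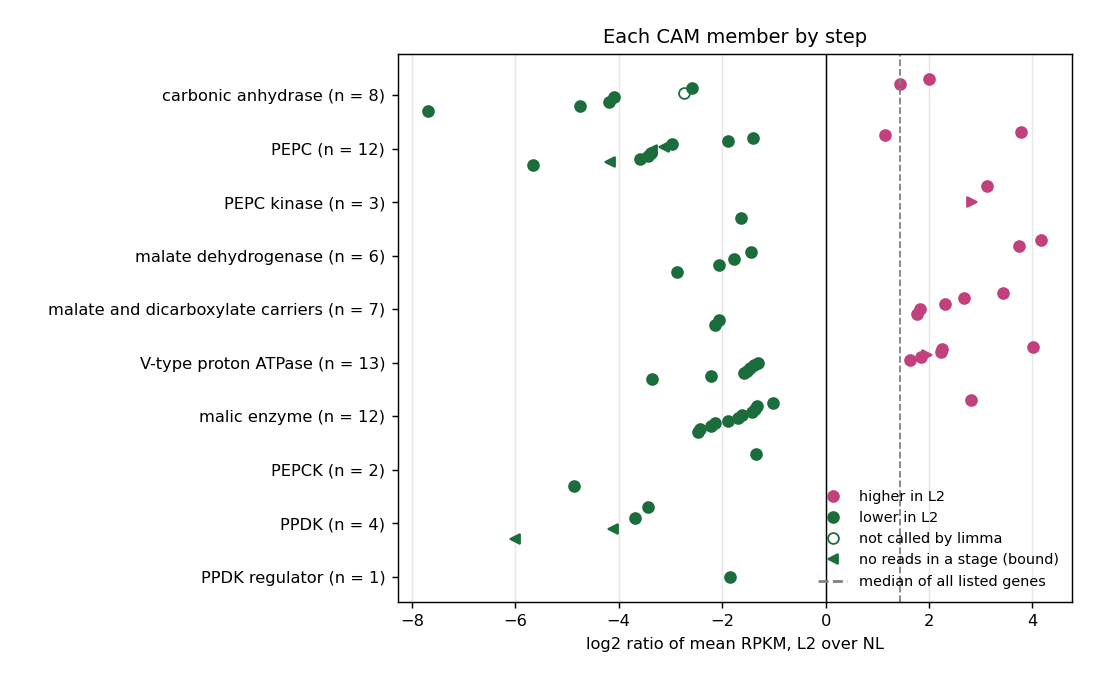
Log2 ratio of mean RPKM, L2 over NL, of each of the 68 members, grouped by step. Filled circles were called by limma, the open circle was not, triangles are members without reads in 1 stage, drawn at the bound set by 3 reads, and the dashed line is the median of all listed genes (1.44). The PPDK, PEPCK and regulator members all lie to the left of 0, and the carriers and V-type proton ATPase lie on both sides.

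Carbonic anhydrase was represented by 8 unigenes, of which 5 fell, 2 rose and 1 was not called. The most abundant was Unigene0038705, matched to beta carbonic anhydrase 2 of Mesembryanthemum nodiflorum, at 401, 403 and 505 RPKM in NL and 20.0, 26.6 and 30.1 RPKM in L2. Every L2 library lay far below every NL library, and the mean was 17.1-fold lower in L2 (limma adjusted p of 2.94e-05). Its neighbours Unigene0038703 and Unigene0038704 have the same match and moved with it. Unigene0038703 had 332, 334 and 418 RPKM in NL and 16.1, 24.6 and 18.9 RPKM in L2, which is 18.2-fold lower (limma adjusted p of 2.94e-05). Unigene0038704 went from 75.6, 81.5 and 99.5 RPKM to 2.02, 3.19 and 4.40 RPKM, 26.7-fold lower (limma adjusted p of 3.56e-05). Together these 3 unigenes made up 883 ± 121 RPKM in NL and 48.6 ± 9.11 RPKM in L2 (SD, n = 3), nearly all of the NL level of the step.

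The largest fall of any member with reads in both stages was that of the carbonic anhydrase Unigene0031858, which was at 30.5, 24.6 and 31.3 RPKM in NL and had 0, 1 and 2 reads in the L2 libraries. Its level was 205-fold lower, and with only 3 reads in L2 the counting error alone allows 77.4 to 1107-fold (exact 95% interval, limma adjusted p of 5.64e-05), and the fold was 409 without L2 replicate 3. The chloroplastic-like Unigene0032571 fell from a mean of 4.60 to 0.767 RPKM (limma adjusted p of 0.0176, and 0.0592 without NL replicate 1). The members that rose were a different class and an isoform that was scarce in NL. Unigene0003107, matched to alpha carbonic anhydrase 7, had 15.3, 22.6 and 9.57 RPKM in NL and 75.7, 31.4 and 21.3 RPKM in L2. Here the stages overlapped, since L2 replicate 3 lay below NL replicate 2, and L2 replicate 1 stood above all others. The 2.70-fold higher mean (limma adjusted p of 0.0302) was not called without that library (log2 change of 0.79, adjusted p of 0.111), without L2 replicate 2 (1.43 and 0.0656), or without NL replicate 1 (1.33 and 0.072) or 3 (0.99 and 0.112). Unigene0002253, matched to isoform 3, rose 3.99-fold, from 3.38, 1.70 and 2.77 RPKM to 6.58, 5.78 and 18.9 RPKM (limma adjusted p of 0.0110), with L2 replicate 3 well above the others, and 2.36-fold without that library. The remaining Unigene0015878 was not called (limma adjusted p of 0.312). Its NL libraries stood at 4.51, 60.9 and 1.55 RPKM and its L2 libraries at 2.17, 2.47 and 5.46 RPKM, so that its lower mean came from NL replicate 2 alone, and without that library the log2 change was 0.21. The count tests on recovered reads did call it lower, with adjusted p of 0.00352 by edgeR with TMM and 0.00997 by DESeq2.

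PEPC, the enzyme of the first night fixation, had 12 unigenes, of which 10 fell and 2 rose. A single unigene carried most of the NL level. Unigene0000677, whose match is a PEPC of Hylocereus undatus, a pitaya, had 626, 634 and 769 RPKM in NL and 10.6, 14.9 and 15.0 RPKM in L2. It was number 33 by NL level among all listed genes and number 3417 in L2, a 50.1-fold lower mean with no overlap (limma adjusted p of 2.94e-05). The second, Unigene0003031, matched to PEPC 1 of Beta vulgaris (sugar beet, a plant without CAM), went the other way, from 58.0, 49.4 and 44.2 RPKM to 120, 88.1 and 128 RPKM. Its 2.22-fold higher mean (limma adjusted p of 0.00116) was the smallest rise of any member, and it was not called when the libraries were scaled by TMM (edgeR, log2 change of 0.29, adjusted p of 0.232) or by DESeq2 size factors (log2 change of 0.06, adjusted p of 0.83).

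The summed RPKM of the PEPC members therefore fell less than its main unigene did, and its makeup turned over. Unigene0000677 held 81.0 to 81.4% of the PEPC sum in the NL libraries and 6.75 to 12.5% in the L2 libraries. Unigene0003031 held 4.66 to 7.52% in NL and 73.6 to 76.7% in L2. Within each library, which frees the comparison from the scaling between libraries, Unigene0000677 was 10.8 to 17.4 times as high as Unigene0003031 in NL, while Unigene0003031 was 5.90 to 11.3 times as high as Unigene0000677 in L2. The other riser was Unigene0045808, matched to PEPC 4, which in Arabidopsis is the bacterial-type PEPC that lacks the phosphorylation site of the plant-type enzymes. It had 13, 4 and 9 reads in the NL libraries and 154, 125 and 200 reads in the L2 libraries. Its mean rose 13.6-fold, from 0.545 ± 0.270 to 7.42 ± 2.26 RPKM (SD, n = 3, limma adjusted p of 0.000443), and stayed a minor part of the sum.

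The other 9 PEPC unigenes all fell, from NL means of 20.3 RPKM or less. The most abundant over both stages was Unigene0039441, a partial match to Pereskia diaz-romeroana, which went from 18.0, 9.77 and 28.3 RPKM to 7.81, 3.12 and 4.15 RPKM, 3.72-fold lower (limma adjusted p of 0.00617). Of the rest, 3 short unigenes (Unigene0051523, Unigene0045032 and Unigene0051528) had no read in any L2 library, which makes their means at least 10.2-fold, 18.0-fold and 8.76-fold lower when 3 reads over the stage are taken as the floor. The last of these rested on NL replicate 2, as Unigene0051528 had 1.26, 8.86 and 1.62 RPKM in NL, and without that library its mean was at least 3.22-fold lower. The remaining 5 fell between 2.66-fold (Unigene0051527) and 12.0-fold (Unigene0045033, 21.6-fold without L2 replicate 3), with Unigene0045034 at 10.3-fold and at 16.9-fold without L2 replicate 1. The 8 PEPC unigenes matched to a cactus protein were all lower, and their sum was 767 ± 107 RPKM in NL and 24.4 ± 1.57 RPKM in L2 (SD, n = 3), 31.5-fold lower. Many have neighbouring numbers and matches to partial proteins, and whether they are pieces or alleles of 1 gene was not tested.

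**Figure D2:**
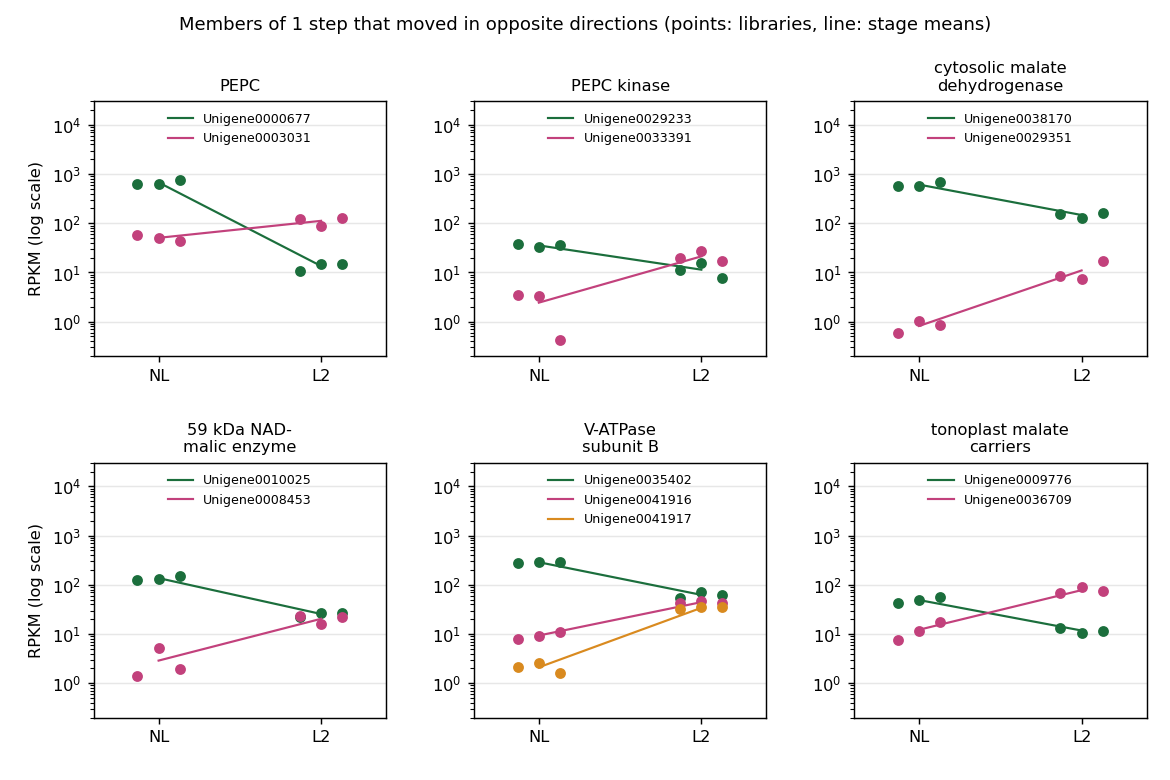
RPKM (log scale) in the 3 NL and 3 L2 libraries of unigenes of the same function that moved in opposite directions. Points are libraries and lines join the stage means. In the PEPC, PEPC kinase and tonoplast carrier panels the order of the unigenes is turned round in L2, whereas for malate dehydrogenase, the 59 kDa NAD-malic enzyme and V-ATPase subunit B the unigene highest in NL keeps the highest stage mean.

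PEPC kinase phosphorylates PEPC and makes it less sensitive to inhibition by malate. The summed level of its 3 unigenes was 37.9 ± 2.74 RPKM in NL and 34.5 ± 8.41 RPKM in L2 (SD, n = 3) and the libraries overlapped, yet each of the 3 was called. The log2 ratio of the kinase sums was -0.13 with RPKM as deposited, -0.62 with the upper quartile, -0.98 with TMM and -1.20 with DESeq2 size factors, so that whether the sum was level or lower depended on the scaling. Unigene0029233 had 37.4, 32.5 and 36.4 RPKM in NL and 11.3, 15.3 and 7.58 RPKM in L2, 3.11-fold lower (limma adjusted p of 0.000726). Unigene0033391 had 3.56, 3.32 and 0.423 RPKM in NL and 19.7, 26.7 and 17.3 RPKM in L2, 8.71-fold higher (limma adjusted p of 0.00243). Both are matched to PEPC kinase 2 of Beta vulgaris, and neither overlapped between the stages. Unigene0033391 made up 1.15 to 9.26% of the kinase sum in NL and 60.1 to 63.7% in L2. The third, Unigene0060352, matched to PEPC kinase 1, had no read in NL and 1.75, 1.65 and 2.27 RPKM in L2, at least 7.18-fold higher (limma adjusted p of 7.76e-05).

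Malate dehydrogenase, which makes malate from oxaloacetate, had 4 unigenes that fell and 2 that rose, and its sum was 4.70-fold lower in L2. The cytoplasmic Unigene0038170 was the most abundant, with 571, 572 and 687 RPKM in NL and 155, 128 and 158 RPKM in L2. Even after this 4.16-fold lower mean (limma adjusted p of 7.36e-05) it held 58.9% of the malate dehydrogenase sum. The chloroplastic NADP enzyme Unigene0003480, which in leaves exports reducing power as malate in the light, stood at 476, 526 and 502 RPKM in NL and at 47.5, 87.2 and 70.0 RPKM in L2. It fell 7.35-fold (limma adjusted p of 5.85e-05), the steepest fall of this step. The glyoxysomal Unigene0041189 had 50.1, 40.8 and 44.4 RPKM in NL and 20.3, 12.4 and 16.7 RPKM in L2, 2.74-fold lower (limma adjusted p of 0.000538), and the chloroplastic Unigene0032158 fell 3.44-fold from a mean of 14.5 RPKM.

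Both malate dehydrogenases that rose were cytoplasmic-like and nearly silent in NL. Unigene0029351 had 0.576, 1.01 and 0.867 RPKM in NL and 8.32, 7.42 and 17.2 RPKM in L2, 13.4-fold higher (limma adjusted p of 0.000341). Unigene0009376 had the largest rise in log2 ratio of all members, 4.17, but on 2 reads in NL, all in replicate 1, and 51 reads in L2. Its 18.0-fold higher mean has an exact 95% counting interval from 4.79 to 154 (limma adjusted p of 0.0016), and without NL replicate 1 the mean was at least 8.07-fold higher. Both stayed minor in L2, with 4.40% of the malate dehydrogenase sum for Unigene0029351 and 1.04% for Unigene0009376.

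The malate and dicarboxylate carriers were the only step whose summed RPKM was higher in L2, 75.0 ± 8.58 RPKM in NL and 134 ± 8.97 RPKM in L2 (SD, n = 3), 1.79-fold. This direction depended on the scaling, as the log2 ratio of the sums was 0.84 with RPKM as deposited, -0.01 with TMM and -0.24 with DESeq2 size factors. The rise was mostly that of Unigene0036709, the tonoplast dicarboxylate transporter (TDT), a malate carrier of the vacuolar membrane in Arabidopsis. It had 7.46, 11.6 and 17.6 RPKM in NL and 69.7, 90.4 and 73.9 RPKM in L2, 6.39-fold higher with wide separation of the stages (limma adjusted p of 0.000143). The most abundant carrier of NL, Unigene0009776, matched to aluminum-activated malate transporter 4 (ALMT4), a vacuolar malate channel in Arabidopsis, fell over the same comparison. Its libraries were at 42.5, 48.3 and 56.3 RPKM in NL and at 13.2, 10.4 and 11.7 RPKM in L2, 4.17-fold lower (limma adjusted p of 7.36e-05). ALMT4 thus gave 65.3% of the carrier sum of NL and 8.75% of that of L2, and TDT gave 16.3% and 58.0%.

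Dicarboxylate transporter 1 (DIT1), which exchanges malate for 2-oxoglutarate across the chloroplast envelope, was listed with 2 unigenes that both rose. Unigene0038609 had 9.01, 8.88 and 5.17 RPKM in NL and 26.8, 23.1 and 31.2 RPKM in L2, 3.52-fold higher (limma adjusted p of 0.000534). Unigene0025831 had 0.363, 0.853 and 0.625 RPKM in NL and 6.34, 4.83 and 8.65 RPKM in L2, 10.8-fold higher (limma adjusted p of 0.000606). The 3 other members of the ALMT family had stage means of at most 7.12 RPKM. ALMT14-like Unigene0029397 rose from a mean of 0.661 to 3.26 RPKM and ALMT2-like Unigene0004822 fell from 2.71 to 0.617 RPKM. Unigene0009775, a short neighbour of Unigene0009776 with the same ALMT4 match, rose from 2.10 to 7.12 RPKM with overlapping libraries, and limma no longer called it without NL replicate 1 or 3 or without L2 replicate 2 or 3 (log2 changes of 1.53 to 1.77). ALMT2-like Unigene0004822 was likewise not called without NL replicate 1 or L2 replicate 1 or 2 (log2 changes of -2.01 to -1.39).

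The V-type proton ATPase, which acidifies the vacuole and so drives malate uptake, was split by subunit and by unigene, with 7 of 13 members lower and 6 higher. The 6 most abundant of NL, among them subunits A, B, H and the 16 kDa proteolipid of the membrane ring, all fell. Unigene0035402, a subunit B, had 282, 289 and 294 RPKM in NL and 53.4, 71.8 and 62.3 RPKM in L2, 4.61-fold lower (limma adjusted p of 5.34e-05). The catalytic subunit A Unigene0038873 had 246, 212 and 227 RPKM in NL and 72.2, 70.5 and 88.1 RPKM in L2, 2.97-fold lower (limma adjusted p of 0.000118). The proteolipid Unigene0030987 had 173, 196 and 192 RPKM in NL and 71.5, 58.0 and 68.2 RPKM in L2, 2.84-fold lower (limma adjusted p of 0.000119). The other abundant ones, Unigene0035213 (subunit H), Unigene0030988 (proteolipid) and Unigene0033112 (subunit A), fell within a narrow range of 2.46 to 2.77-fold. The seventh, Unigene0009333, is a short subunit A unigene with 4 reads in L2.

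The pump members that rose were 2 further B subunits, all 3 of the membrane subunit a, and subunit G. Unigene0041916 had 7.88, 9.11 and 11.0 RPKM in NL and 42.7, 47.4 and 43.3 RPKM in L2, 4.77-fold higher (limma adjusted p of 6.09e-05). Its neighbour Unigene0041917 had 2.18, 2.55 and 1.59 RPKM in NL and 31.7, 35.2 and 35.3 RPKM in L2, 16.2-fold higher (limma adjusted p of 3.87e-05). With Unigene0035402 going down and these going up, subunit B changed from nearly 1 unigene, 95.9 to 96.6% of its sum in NL, to a mix of 3 in L2. There Unigene0035402 still held the most, 41.8 to 46.5%, with Unigene0041916 at 30.7 to 33.4% and Unigene0041917 at 22.8 to 25.1%. The sum of subunit B was 300 ± 7.06 RPKM in NL and 141 ± 13.3 RPKM in L2 (SD, n = 3), 2.12-fold lower, against 2.95-fold for subunit A and 2.70-fold for the proteolipid.

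Subunit a anchors the pump in a membrane, and in Arabidopsis a1 serves the trans-Golgi network and a3 the tonoplast. Unigene0044021, matched to a1, rose 3.13-fold, from 7.80, 10.9 and 11.0 RPKM to 30.6, 26.2 and 35.9 RPKM (limma adjusted p of 0.000354). Unigene0047686, matched to a3, rose 4.74-fold, from 3.19, 3.74 and 2.09 RPKM to 14.9, 10.7 and 17.1 RPKM (limma adjusted p of 0.000559). Both matches were thus higher in L2, as was the short a3 unigene Unigene0009634, which had no reads in NL and a mean of 1.17 RPKM in L2. Subunit G 1, Unigene0042489, had 2.77, 2.97 and 2.24 RPKM in NL and 8.27, 8.46 and 12.0 RPKM in L2, 3.60-fold higher (limma adjusted p of 0.00114).

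Malic enzyme, which releases CO2 from malate by day, had 12 unigenes, of which 11 fell and 1 rose. The 7 NADP-dependent unigenes all fell, and their sum was 1214 ± 43.5 RPKM in NL and 371 ± 30.3 RPKM in L2 (SD, n = 3), 3.27-fold lower. Unigene0050123, matched to Hylocereus undatus, was the most abundant, with 438, 513 and 501 RPKM in NL and 164, 196 and 177 RPKM in L2. It fell 2.70-fold (limma adjusted p of 0.000241) and was, with a mean of 179 RPKM, the most abundant of all members in L2. Its neighbour Unigene0050125 had 151, 186 and 178 RPKM in NL and 49.0, 59.4 and 50.5 RPKM in L2, 3.24-fold lower (limma adjusted p of 8.72e-05). Unigene0004069 had 187, 177 and 162 RPKM in NL and 32.1, 45.5 and 42.2 RPKM in L2, 4.39-fold lower (limma adjusted p of 6.12e-05). The other NADP-dependent unigenes fell between 2.51-fold (Unigene0047664) and 5.49-fold (Unigene0049831).

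Of the NAD-dependent malic enzymes, which act in mitochondria, 4 fell and 1 rose, and their sum was 250 ± 12.7 RPKM in NL and 90.7 ± 6.66 RPKM in L2 (SD, n = 3), 2.75-fold lower. The 59 kDa isoform was listed with 2 unigenes of opposite direction. Unigene0010025 had 126, 131 and 154 RPKM in NL and 22.6, 27.3 and 26.7 RPKM in L2, 5.36-fold lower (limma adjusted p of 4.12e-05). Unigene0008453 had 1.41, 5.30 and 1.94 RPKM in NL and 23.6, 15.9 and 21.7 RPKM in L2, 7.06-fold higher (limma adjusted p of 0.000761), or 12.2-fold without NL replicate 2. The riser went from 1.11 to 3.90% of the 59 kDa sum in NL to 36.8 to 51.1% in L2, where in replicate 1 it passed Unigene0010025. The 65 kDa and 62 kDa unigenes fell 2.57-fold (Unigene0047865), 2.03-fold (Unigene0047866) and 3.05-fold (Unigene0047867), and Unigene0047866 had the smallest fall of any member.

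PEPCK, the other route of decarboxylation, was far less abundant than malic enzyme, whose listed sum was 22.6 to 26.7 times the listed PEPCK sum in the NL libraries and 15.5 to 32.1 times in the L2 libraries. Unigene0049673 had 51.2, 63.4 and 54.4 RPKM in NL and 21.0, 15.0 and 30.1 RPKM in L2, 2.56-fold lower (limma adjusted p of 0.0015). Its neighbour Unigene0049671 had 2.00, 2.74 and 2.87 RPKM in NL and a single read in L2, 29.2-fold lower with an exact 95% counting interval from 5.23 to 1328 (limma adjusted p of 0.000611), and at least 7.46-fold lower without L2 replicate 2, which held that read. The stages overlapped for neither.

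PPDK had the highest summed level of any step in NL. Its sum also fell the most, though that of carbonic anhydrase fell nearly as much. Unigene0053123, matched to PPDK of the ice plant Mesembryanthemum crystallinum, which turns to CAM under salt stress, was number 13 by NL level among all listed genes. It had 1515, 1693 and 1777 RPKM in NL and 118, 200 and 140 RPKM in L2, 10.9-fold lower (limma adjusted p of 4.64e-05), and alone took 0.887 to 1.04% of the library reads in NL and 0.0693 to 0.117% in L2. Unigene0049710, with the same match, had 73.2, 70.4 and 87.0 RPKM in NL and 2.05, 9.44 and 6.40 RPKM in L2, 12.9-fold lower (limma adjusted p of 0.000259). The fall was thus of like size in both long PPDK unigenes, although the first was 20.4 to 57.9 times as high as the second within a library. The short unigenes Unigene0053124 and Unigene0053122, neighbours of the first, had no reads in L2 and were at least 64.7-fold and at least 17.4-fold lower. Their NL values were uneven, Unigene0053124 at 13.7, 18.5 and 40.3 RPKM (limma adjusted p of 4.57e-05) and Unigene0053122 at 2.33, 2.74 and 16.6 RPKM (limma adjusted p of 0.000376), with NL replicate 3 highest in both. Without that library the bounds were 43.1-fold and 6.12-fold. The PPDK regulatory protein, Unigene0035909, had 34.6, 39.5 and 42.5 RPKM in NL and 11.5, 13.0 and 7.71 RPKM in L2, 3.62-fold lower (limma adjusted p of 0.000251).

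The RPKM of all members of a step were then added in each library. Steps far apart in the order below differed beyond the spread of the libraries, while neighbouring ones were close. The log2 ratio of the sums was -3.48 for PPDK and -3.17 for carbonic anhydrase, and -3.31 and -3.30 without L2 replicate 1. It was -2.49 for PEPC and -2.23 for malate dehydrogenase, so the order of such neighbours is not settled. PPDK went from 1770 ± 159 to 159 ± 45.9 RPKM (SD, n = 3), 11.1-fold lower. Carbonic anhydrase went from 957 ± 104 to 106 ± 15.6 RPKM, 9.02-fold lower, and PEPC from 833 ± 101 to 148 ± 25.1 RPKM, 5.63-fold lower. These were the deepest falls, and the libraries of the stages lay far apart in each. Malate dehydrogenase followed with 1172 ± 72.6 and 249 ± 16.1 RPKM, then the single PPDK regulator, and malic enzyme with 1464 ± 38.4 and 462 ± 31.8 RPKM, 3.17-fold lower. PEPCK went from 58.9 ± 6.59 to 22.1 ± 7.47 RPKM, 2.66-fold lower, and the proton pump from 1012 ± 36.3 to 447 ± 23.2 RPKM, 2.27-fold lower. Apart from PEPC kinase, whose libraries overlapped, and the carriers, every step was lower in each L2 library than in each NL library. The sums weigh a step by its most abundant unigenes, and they hold listed genes only.

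**Figure D3:**
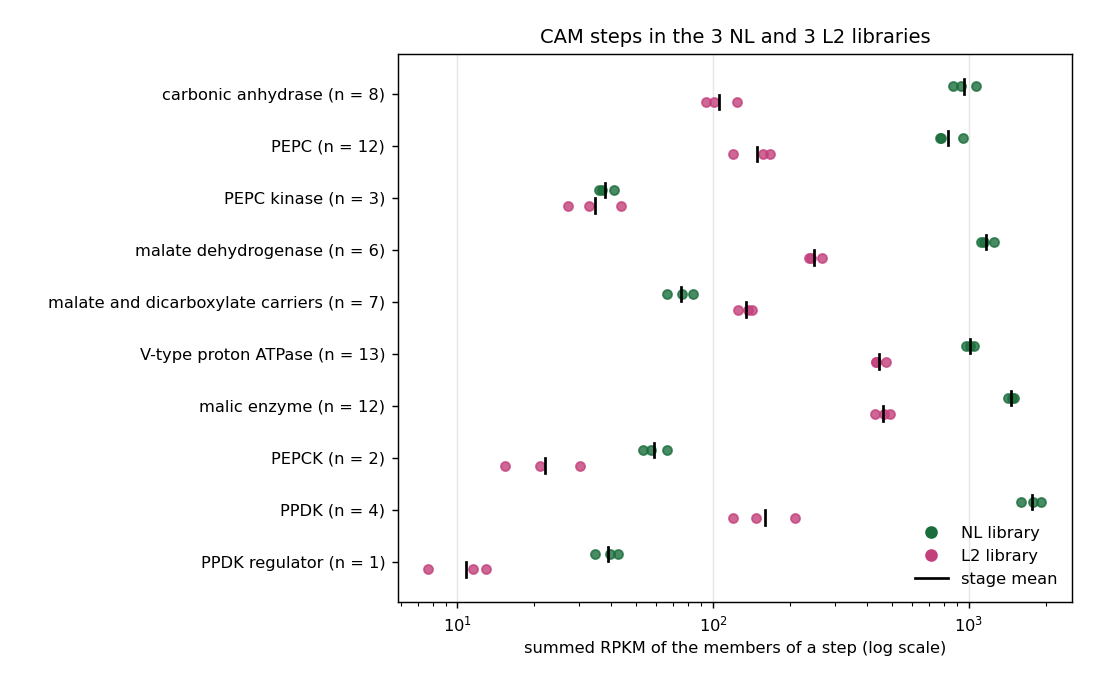
Summed RPKM (log scale) of the listed members of each CAM step in every library, with n members a step. Each point is 1 library and the bar is the mean of the 3 libraries of a stage. NL and L2 lie apart in all steps except PEPC kinase, and only the carriers are higher in L2, a direction that turns with TMM or DESeq2 scaling.

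All members together took 2.18 to 2.46% of the library reads in NL and 0.433 to 0.490% in L2. The most abundant sum of NL was PPDK and that of L2 was malic enzyme. Carbonic anhydrase, PEPC, its kinase, malate dehydrogenase, the carriers and the proton pump were counted as night steps, the others as day steps. This split goes by annotation words and not by compartment. The night steps thus also hold chloroplastic and glyoxysomal malate dehydrogenases, the DIT1 unigenes and the pump subunit a1. Whether each member serves the night fixation was not tested. The night steps held 19 members that were higher and 30 that were lower, and 11 of the 19 were carriers or pump subunits. Of the 19 members of the day steps a single one, the 59 kDa NAD-malic enzyme Unigene0008453, was higher.

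Direction went with the level in NL. The NL mean is also the denominator of the ratio that sets the direction, so the link is in part built in. All 16 members with a mean of at least 100 RPKM in NL were lower in L2, and of those with at least 10 RPKM 39 of 42 were lower (92.9%). The same was true in part of the whole table, in which 88.4% of the 371 genes with at least 100 RPKM in NL and 65.2% of the genes with at least 10 RPKM were lower. Below 10 RPKM in NL, 17 of 26 members were higher (65.4%), beside 75.1% of all listed genes. No member that rose had more than 50.5 RPKM in NL or more than 112 RPKM in L2, and Unigene0003031, the PEPC, held both values. The members that fell ended in L2 at a median of 11.6 RPKM and those that rose at 12.6 RPKM. Their NL medians were 47.1 and 2.52 RPKM, a contrast that splitting by direction itself favours.

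**Figure D4:**
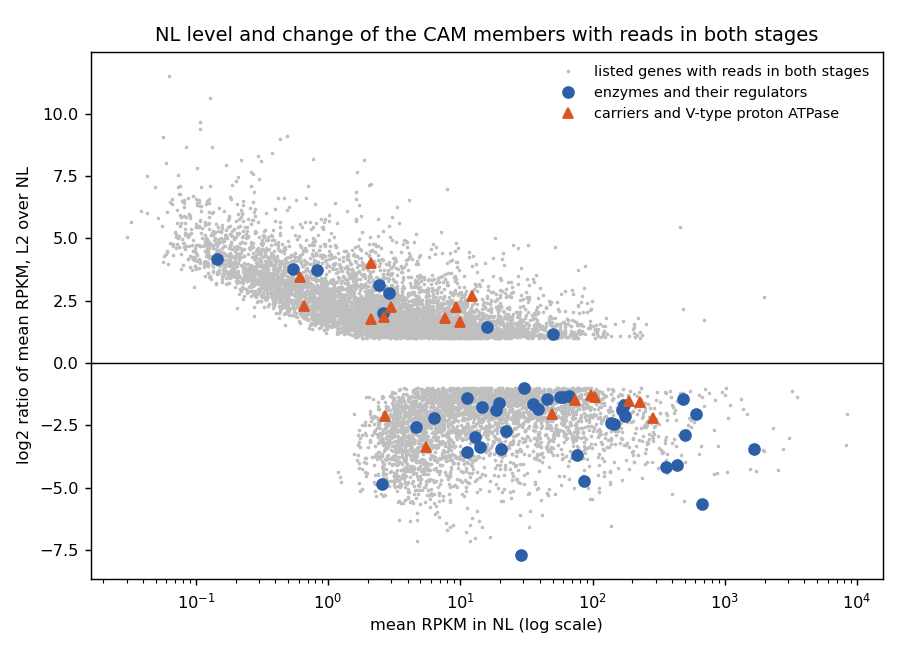
Log2 ratio of mean RPKM, L2 over NL, against mean RPKM in NL (log scale), so that the NL level enters both axes. Grey points are all listed genes with reads in both stages, circles are CAM enzymes and their regulators, and triangles are carriers and V-type proton ATPase subunits. No member above 50.5 RPKM in NL was higher in L2, and the empty band around 0 comes from the table, since genes whose log2 ratio lay within 1 of 0 were not listed.

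The protein matches, which the rule used only for their wording, also named a species. The 11 members matched to a cactus, 8 of PEPC and 3 of malic enzyme, were all lower, and they make up most of the 13 listed genes with a cactus match, of which 92.3% were lower. The 5 members matched to Mesembryanthemum, 3 of carbonic anhydrase and 2 of PPDK, were all lower as well, against 49.0% of the 51 listed genes with such a match. Of the 26 members matched to Beta vulgaris, 15 were lower and 11 higher, where 26.7% of the 4446 listed genes with this match were lower. Neighbouring unigene numbers, up to 3 apart, tied 29 members into 11 runs, and 10 of these runs moved in 1 direction. The exception was the ALMT4 pair Unigene0009775 and Unigene0009776. Counting each run once left 50 groups, of which 18 were higher, 31 lower and 1 mixed. Reads of near-identical unigenes may have been shared between them when they were counted.

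Genes around the CAM cycle were counted from lists of annotation words. Beside these counts, 63.4% of all listed genes were higher and 36.6% lower, and limma called 63.0% higher and 36.3% lower. Rubisco and its activase, which fix the CO2 set free by day, were lower for 7 of 7 listed genes, 4 of them called. Starch breakdown, a source of phosphoenolpyruvate for the night, had 11 of 15 genes lower and 4 higher, all called. The most abundant of this list in NL, Unigene0050254 (means of 291 and 84.2 RPKM), is matched to an inactive beta-amylase, as is Unigene0038074. The most abundant in L2, the beta-amylase 1 Unigene0049062, was higher, with means of 70.3 and 230 RPKM. The glycolytic list, which holds also 2 enolase-phosphatases of methionine salvage caught by its words, had 15 of 26 lower and 11 higher, all called, and its sum lay at 4389 to 4959 RPKM in the NL libraries and at 889 to 950 RPKM in the L2 libraries, 5.05-fold lower in the mean. Much of this was the chloroplastic aldolase Unigene0039845, an isoform of the Calvin cycle, with a mean of 2519 RPKM in NL and 130 RPKM in L2, and without it the sum was 2.67-fold lower. In contrast, phosphate translocators were higher for 13 of 15 genes. Several of them are matched only to probable sugar phosphate translocators. The most abundant in NL, the triose phosphate translocator Unigene0027212, was lower, with means of 76.4 and 27.9 RPKM. The list of other malate and oxaloacetate enzymes was higher for 11 of 14. In it the 6 citrate synthases and ATP-citrate synthase subunits were all higher, while the 5 aspartate aminotransferases were split, 3 higher and 2 lower, and their sum went from a mean of 368 RPKM in NL to 168 RPKM in L2. The lower ones were the most abundant, Unigene0042805 with means of 254 and 43.4 RPKM and Unigene0033758 with 73.2 and 13.1 RPKM. The list takes in 2 isopropylmalate synthases of leucine synthesis, 1 higher and 1 lower. Of other proton pumps, the 2 plasma membrane ATPases were higher and the 2 vacuolar pyrophosphatases were split. The more abundant plasma membrane ATPase, Unigene0051160, had a mean of 61.6 RPKM in NL and 449 RPKM in L2. Its L2 level was near the sum of all listed V-type ATPase unigenes. That sum adds different subunits of 1 complex, so the amounts of the pumps cannot be compared by it.

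Markers of the tissue moved with these results. All 41 listed markers of green stem tissue (40 photosystem and chlorophyll-binding proteins and 1 Rubisco small subunit that is also among the 7 Rubisco and activase genes) were lower in L2, 37 of them called, with summed levels of 6451 to 7907 RPKM in the NL libraries and 1069 to 2326 RPKM in the L2 libraries, and 3 of them had no reads in L2. Floral organ identity genes were higher for 10 of 11, with sums of 18.7 to 32.0 RPKM in the NL libraries and 180 to 273 RPKM in the L2 libraries, and 2 of them had no reads in NL. Markers of dividing cells were higher for 75 of 90, beside 63.4% of all listed genes. Their sums were 741 to 940 RPKM in the NL libraries and 1396 to 2110 RPKM in the L2 libraries. The words of this list also caught genes that do not mark division, such as calcyclin-binding protein and kinesin light chain-related proteins. Cyclin-dependent kinase inhibitors were among them too, some higher and some lower. Clock genes, which change through the day, were lower for 11 of 12, with sums of 1101 to 1416 RPKM in the NL libraries and 144 to 296 RPKM in the L2 libraries. The part of the tissue makeup and of the hour of sampling in the changes of the CAM members was not tested.

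The scaling of the libraries set the size of the changes. Scaling by the upper quartile, TMM and DESeq2 size factors moved the log2 ratios by -0.50, -0.85 and -1.08 on average, in turn, and left 20 members higher and 48 lower in mean level each time. By edgeR with TMM, 15 members were called higher and 48 lower, beside 38.6% and 36.6% of all listed genes. By DESeq2 these were 14 and 48 members, beside 25.1% and 36.4%. The members that were no longer called higher were the PEPC Unigene0003031, the carbonic anhydrases Unigene0003107 and Unigene0002253, the ALMT unigenes Unigene0009775 and Unigene0029397 and, with DESeq2, the short subunit a3 Unigene0009634. TMM and DESeq2 take most genes as unchanged, and a table of genes selected for change does not meet this.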

How the data were processed

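Tissue around the thorn seat of pitaya stems was profiled by RNA-seq, and 3 NL and 3 L2 libraries were compared. The authors assembled unigenes with Trinity and aligned reads with Bowtie2, and they deposited RPKM per library with mean expected counts per stage for the 11051 genes they called at FDR ≤ 0.05 with a log2 ratio of 1 or more in size. The counting tool and the test are not given in the sources used here. The deposited columns of log2 ratio, p-value and FDR were not used.

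The main test was limma 3.58.1 (R 4.3.3; trend, two-sided) on log2(RPKM + 0.1) over all listed genes, with Benjamini-Hochberg adjustment and no filter. Folds on the log2 scale with this pseudocount understate the change of low genes, so ratios of mean RPKM are printed. Whole reads were recovered from RPKM and the deposited mean counts (59302 nonzero values, 100% within 0.05 of a whole number) and served for counting intervals, the floor of 3 reads over a stage, and the alternatives with edgeR 4.0.16 and DESeq2 1.42.0. Intervals and floors cover counting error only. The fits were tested first on simulated data in which 200 genes changed and the rest did not, a setting unlike this table of selected genes.

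Members were found by words in the protein match. The word rule for members and the lists were chosen with earlier results of these data known. Named in full were up to 3 of the highest members of a step, steps of up to 4 members, the 5 largest rises and falls, and members that moved against their step at 1 RPKM or more in both stages. Unigene0010025, Unigene0015878 and some further members named beside these were added after their values were seen. Libraries carry the numbers 1 to 3 in each stage, which were not taken to pair them. Alternatives were the pseudocount, a filter on low values, the scaling, the tool, a replicate block and leaving out each library. Ratios of stage means without each library, and the splits of the glycolytic list and of the list of other malate enzymes, were added after seeing the data.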

Additional observations from a re-analysis of the deposited data

How the results depend on the processing

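The median log2 ratio of the 68 members was -1.67 with RPKM as deposited, -2.15 with the upper quartile, -2.51 with TMM and -2.73 with DESeq2 size factors, and that of the V-type proton ATPase members was -1.30, -1.79, -2.15 and -2.38 in the same order. The summed carriers reversed, from a log2 ratio of 0.84 to -0.01 with TMM and -0.24 with DESeq2. These moves follow from the factors themselves, which lower L2 values against NL. Leaving out each library in turn gave 18 to 20 members called higher and 45 to 47 called lower by limma. Of 533 results of the 41 named members under the alternatives, 523 kept their call and 10 lost it, and none of the named members reversed. Among the others, Unigene0015878 reversed without NL replicate 2, with a log2 change of 0.21. The shared numbers of the libraries were not taken to pair them. The correlations of same-numbered libraries were small, at 0.0353, 0.0225 and 0.0597. They lay above those of the other pairs (-0.0455 to 0.0114), and values this small cannot settle whether the numbers pair the libraries. With the replicate block limma called 20 members higher and 47 lower. The alternative that left out isopropylmalate matches gave no value, as no member had one. Low counts limit the 5 members without reads in L2 and the 2 without reads in NL, for which only bounds can be given.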
